A study of Mus musculus with 8 samples.

Results

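Integrins, the cell surface receptors for extracellular matrix, and the laminins and nidogens of basement membranes were examined in dermal fibroblasts of young and old mice. The genes were chosen by name, as collagen-, laminin- and Arg-Gly-Asp (RGD)-binding integrin subunits, laminin chains and nidogens, and 32 were listed. Of these, 27 had at least 1 probe set annotated to that symbol alone, out of 17097 genes represented on the arrays: 18 of 20 integrin subunits, 8 of 10 laminin chains and 1 of 2 nidogens. Itga11, Itgb8, Lama4, Lama5 and Nid2 were not analysed here. The 27 genes had 55 probe sets, and each gene was represented by the probe set that was brightest on average. No member was removed by a filter on low values.

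The young group held 4 mice aged 2 months and the old group 4 mice aged 18 months, with 1 array per animal. No genotype, strain or treatment is given in the sources used here. In both groups, skin freed of the subdermis was digested with collagenase, and cells were sorted that lacked CD45, CD117, CD24, CD31 and EpCam and carried Pdgfra and CD34. The comparison asks how the transcript levels of these genes in sorted fibroblasts differ with age. In such bulk samples, fewer cells of a type and less RNA per cell cannot be told apart.

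An integrin is a dimer of an alpha and a beta subunit, and the pair decides which matrix protein is bound. Most fibroblast integrins share the beta subunit Itgb1, whose alpha partners direct it to collagens (Itga1, Itga2), laminins (Itga3, Itga6, Itga7) or proteins with an RGD motif such as fibronectin (Itga5, Itga8, Itgav). Laminins are trimers of an alpha, a beta and a gamma chain that polymerise into the sheet of a basement membrane, and nidogens link that sheet to collagen IV. In skin, fibroblasts meet such sheets at the dermal-epidermal junction and around hair follicles, vessels, nerves and the arrector pili muscle.

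The arrays were alike in scale, with medians between 5.19 and 5.34 on the log2 scale. Fibroblast markers were bright in all arrays, from 7.99 to 12.81 over the 9 measured, and 0 of 9 were called (4 at an unadjusted p under 0.05 by limma). Keratinocyte markers were present as well, with a mean of 11 genes between 6.99 and 8.07 in young and between 7.66 and 8.74 in old arrays. Of these 11, 3 were called higher and 1 lower, against 9.87% higher and 7.66% lower over all genes. An index of non-specific signal, the mean of 11 control probe sets of high GC content, lay between 5.76 and 6.02 in young and between 5.10 and 5.63 in old arrays. The index separated the ages without overlap, so in a fit that holds it as a covariate the age difference has a larger error. As a gauge of signal without expression, 20 genes specific to other organs had means up to 6.68, with 90% of them at or below 5.92. Of the 27 members, 13 had means below 5.92, and for these a level cannot be told from non-specific signal.

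Among integrins, laminin chains and nidogen 1, the RGD-binding alpha subunits Itga8 and Itga5 were higher in old fibroblasts. The other 25 did not pass the test. Itga8 differed by 1.25 ± 0.16 and Itga5 by 0.70 ± 0.21 on the log2 scale (SE, n = 4 per group), for Itga8 near the level of non-specific signal. The call of Itga5 ended when any of 6 single arrays was left out. With the index of non-specific signal as a covariate neither gene was called. By limma with Benjamini-Hochberg adjustment over 17097 genes at a threshold of 0.05, 2 of 27 members (7.41%) were called, both higher. Over all genes 9.87% were called higher, 7.66% lower and 17.5% in either direction, so the members' share lay below that of all genes. The calls over all genes, 1688 higher and 1310 lower, became 1415 and 1716 after a further quantile normalization. At an unadjusted p under 0.05, 5 members were higher and 3 lower. The share of all genes under that cut was not counted, and it is at least the 17.5% called after adjustment. These 2 counts are therefore not read as an excess. The median difference was 0.10 over the members and 0.0075 over all genes, and the median size of the difference was 0.175 against 0.115. For 22 of 27 members the difference was smaller than 0.25, and for 19 the 95% confidence interval lay within 0.5 of no difference on either side. The old values lay wholly above the young values for 2 members and wholly below for 2, against 11.7% and 9.66% of all genes.

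**Figure D1:**
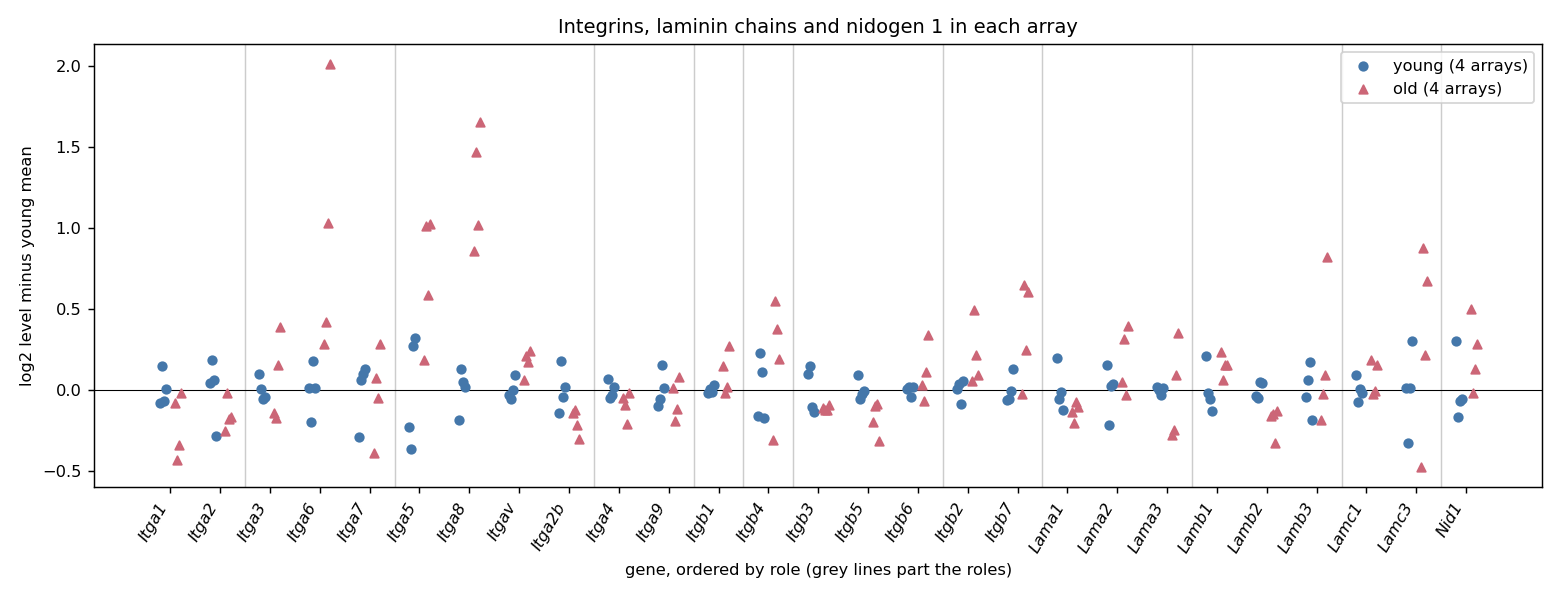
Log2 level of each measured member in each of the 8 arrays, after subtracting the mean of the 4 young arrays (circles young, triangles old). Itga8 and Itga6 have all old values above all young values, and most other genes spread around 0 in both groups.

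**Figure D2:**
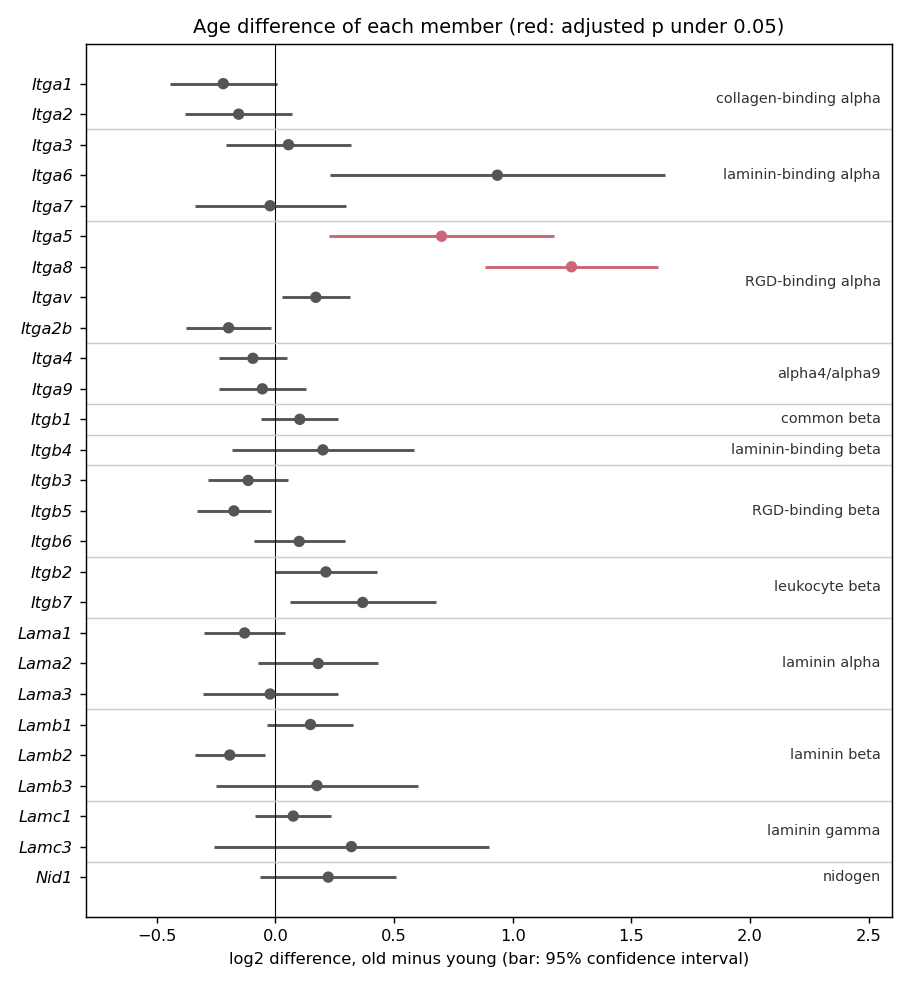
Log2 difference, old minus young, of each of the 27 measured members, ordered by role, with its 95% confidence interval from limma (n = 4 per group). Itga8 and Itga5, in red, pass an adjusted p of 0.05 and the other 25 do not. The call of Itga5 was lost after a further quantile normalization and when any of 6 single arrays was left out.

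The sequences upstream of Itga8 and Itga5 are shown because these 2 members passed the test. Neither call held in every setting. Promoter windows were found for 18 of the 27 measured members in RefSeq (GRCm38.p6). The 250 bases before the annotated start are given 5′ to 3′ on the gene's strand, with matches to the GC box (GGGCGG on either strand) in capitals. The window of Itga8 is chr2:12301945-12302194 (minus strand) and that of Itga5 is chr15:103366792-103367041 (minus strand).
Itga8: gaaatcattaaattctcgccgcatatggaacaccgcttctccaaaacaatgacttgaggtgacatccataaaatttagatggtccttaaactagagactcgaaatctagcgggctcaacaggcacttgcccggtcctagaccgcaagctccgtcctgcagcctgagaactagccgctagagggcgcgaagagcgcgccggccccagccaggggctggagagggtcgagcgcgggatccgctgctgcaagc
Itga5: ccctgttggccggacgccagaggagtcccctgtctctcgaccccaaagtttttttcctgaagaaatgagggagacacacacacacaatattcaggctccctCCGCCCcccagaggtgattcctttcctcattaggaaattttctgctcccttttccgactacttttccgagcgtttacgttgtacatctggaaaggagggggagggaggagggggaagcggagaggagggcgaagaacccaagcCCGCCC
The Itga5 window held 2 GC boxes, with first bases at positions -149 and -6 from the start, and the Itga8 window held none. A GC box was found in 32.7% of 32851 RefSeq windows of this length. The windows had GC contents of 56.4% (Itga8) and 55.6% (Itga5) against a median of 52.4%, with 18 and 11 CpG dinucleotides against a median of 6. Neither window held the letters TATAAA (12.4% of windows), GGAATG (a TEAD motif, 12.6%) or TGANTCA (an AP-1 motif, 6.75%) on either strand. No match of one motif overlapped that of another.

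Itga8, which pairs with Itgb1 to bind nephronectin, fibronectin and tenascin and is known from the dermis around hair follicles, showed the clearest difference. Its level was 4.39, 4.70, 4.62 and 4.59 in young arrays 1 to 4 and 5.43, 6.04, 5.59 and 6.23 in old arrays 1 to 4. All 4 old values lay above all 4 young values, and old arrays 2 and 4 were the highest. The means were 4.58 ± 0.13 and 5.82 ± 0.37 (SD, n = 4 each), and the difference had a 95% confidence interval of 0.88 to 1.61 (adjusted p = 7.82e-04). All Itga8 values lay below 6.68, the highest mean among genes of other organs. All young values, the old mean and old arrays 1 and 3 also lay below 5.92, so no fold is given. With any 1 array left out the difference stayed between 1.11 and 1.38 and the call held. With the index of non-specific signal as a covariate the difference was 1.15 ± 0.34 (SE), but the call was lost (adjusted p = 0.172; range over all alternatives 2.74e-04 to 0.172). A dimmer probe set of Itga8 went from 4.13 to 4.33 in young and from 4.26 to 4.98 in old arrays, with overlap (0.44, adjusted p = 0.0899 over all probe sets).

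Markers of pericytes and smooth muscle, cells that also carry Itga8, had a mean of 7 genes between 5.45 and 5.67 in young and between 5.85 and 6.31 in old arrays. In that list 1 of 7 was called, Kcnj8, which was higher (0.64), against 9.87% higher and 7.66% lower over all genes. Rgs5, a pericyte gene, was at 4.04 to 4.49 in young arrays and at 4.86, 4.95, 6.93 and 4.96 in old arrays 1 to 4 (1.198, adjusted p = 0.0696). The highest Rgs5 value was in old array 3 and the highest Itga8 value in old array 4. All other Rgs5 values lay below 5.92, within the range of non-specific signal. The part of these cells in the Itga8 difference was not tested.

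Itga5, the alpha subunit of the classical fibronectin receptor, was at 7.31, 7.17, 7.81 and 7.86 in young arrays 1 to 4 and at 7.72, 8.55, 8.12 and 8.56 in old arrays 1 to 4. The groups overlapped, since old array 1 lay below young arrays 3 and 4. The means were 7.54 ± 0.35 and 8.24 ± 0.40 (SD, n = 4 each), with an adjusted p of 0.0483 and a 95% confidence interval of 0.22 to 1.18. Over all probe sets its adjusted p by limma was 0.0613. The call ended when any of 6 single arrays was left out (young 1, 2 or 3, old 2, 3 or 4; adjusted p up to 0.126), after a further quantile normalization (0.0538) and with trend and robust settings (0.059). With the mean of keratinocyte markers as a covariate the difference was 0.38 ± 0.25 (SE, adjusted p = 0.438), and with the index of non-specific signal it was 0.82 ± 0.44 (adjusted p = 0.509). For Itga8 the keratinocyte covariate left 1.07 ± 0.21 (adjusted p = 0.0187).

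Of the other RGD-binding alpha subunits, Itgav, which activates latent TGF-beta with several beta partners, was at 10.46, 10.43, 10.49 and 10.58 in young and 10.55, 10.70, 10.66 and 10.73 in old arrays. Its difference was 0.17 (95% confidence interval 0.03 to 0.31, adjusted p = 0.104), and over its 5 probe sets the difference ranged from -0.05 to 0.17. Itga2b, the alpha subunit of the platelet fibrinogen receptor, was between 8.21 and 8.53 in young and between 8.05 and 8.23 in old arrays (-0.20, adjusted p = 0.125). The 4 measured platelet markers lay between 3.51 and 5.39, and 0 of 4 were called (0 at an unadjusted p under 0.05 by limma).

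Of the beta subunits that join Itgav, none passed the test. Itgb5, a vitronectin receptor subunit, was at 11, 10.85, 10.88 and 10.90 in young and 10.71, 10.81, 10.82 and 10.59 in old arrays. All old values lay below all young values, but the difference of -0.175 (95% confidence interval -0.33 to -0.02) had an adjusted p of 0.125. Its dimmer probe set differed by -0.23 and passed over all probe sets (adjusted p = 0.047). Itgb3, the other vitronectin receptor subunit, differed by -0.115 (adjusted p = 0.35), and its 4 old values lay between 10.10 and 10.13, within the young range of 10.09 to 10.37. Itgb6, an epithelial subunit, lay between 3.80 and 4.21 in all arrays, a level that genes of other organs also reached.

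Itgb1, the shared beta subunit, was at 10.89 to 10.94 in young and 10.89 to 11.18 in old arrays. Its difference was 0.10, with a 95% confidence interval of -0.06 to 0.26 (adjusted p = 0.395), and its 5 probe sets ranged from -0.06 to 0.17. Of the subunits that pair with it in lymphocyte and lymphatic adhesion, Itga4 differed by -0.095 (adjusted p = 0.365) and Itga9 by -0.055 (adjusted p = 0.716). Itga4 lay between 4.39 and 4.67 in all arrays, a level that genes of other organs also reached. The 95% confidence interval for Itga9 was -0.24 to 0.13.

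The collagen-binding alpha subunits did not pass. Itga1, a receptor for collagen IV and fibrillar collagens, was at 5.23, 5.46, 5.24 and 5.32 in young and 5.23, 4.88, 4.97 and 5.29 in old arrays (-0.22, adjusted p = 0.179). Itga2, a receptor for fibrillar collagen, was between 4.74 and 5.21 in young and 4.77 and 5.01 in old arrays (-0.155, adjusted p = 0.351). Both were at a level that genes of other organs also reached, and the ranges of the groups overlapped.

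Among laminin-binding subunits, Itga6, which anchors basal keratinocytes and is also found on endothelium, had the widest spread in the old group. It was at 5.21, 5.0, 5.38 and 5.21 in young and 5.48, 5.62, 6.23 and 7.21 in old arrays 1 to 4. All old values lay above all young values, and old array 4 was the highest. All young values and old arrays 1 and 2 lay below 5.92, a level that genes of other organs also reached. Old array 3 lay below 6.68, the highest mean among those genes. The difference was 0.935 ± 0.32 (SE), with a 95% confidence interval of 0.23 to 1.64 and an adjusted p of 0.0714. Its other probe set differed by 0.76 (adjusted p = 0.0891 over all probe sets). Without old array 4 the difference was 0.58 (adjusted p = 0.0579), and without old array 1 it was 1.15 and passed (0.0305).

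The mean of the keratinocyte markers followed the order of Itga6 within the groups but not across them. Within the old group it was 7.66, 7.85, 8.23 and 8.74 in arrays 1 to 4, the same order as Itga6. Within the young group array 3 was highest and array 2 lowest in both. Young array 3 had a marker mean of 8.07, above old arrays 1 and 2, but its Itga6 level of 5.38 lay below theirs (5.48 and 5.62). Krt14, a keratin of basal keratinocytes, rose from 8.09 ± 0.55 to 9.75 ± 0.53 (SD, n = 4 each; adjusted p = 0.00469). Krt5, its keratin partner, and Perp, a desmosome gene, were also higher (1.04 and 1.62). Trp63, a transcription factor of basal keratinocytes, went the other way, from 7.36 to 7.78 in young and from 7.02 to 7.34 in old arrays (-0.405, adjusted p = 0.0237), and the other 7 markers did not pass. Over all genes 9.87% were called higher and 7.66% lower. Perp and Trp63 were named after their values were seen. With the mean of keratinocyte markers as a covariate, Itga6 differed by 0.23 ± 0.27 (SE, adjusted p = 0.686). This fit was chosen after the data were seen, and the part of keratinocytes in the Itga6 difference was not tested.

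The other chains of the epidermal adhesion complex showed no difference that passed, but array 4 led the old group in several. Lamb3, Lama3, Itga3 and Itgb4 all had means below 5.92, where a level cannot be told from non-specific signal. Lamb3, a chain of the laminin under basal keratinocytes, was at 4.77, 4.93, 5.05 and 5.78 in old arrays 1 to 4 and between 4.77 and 5.13 in young arrays (0.175, adjusted p = 0.604). Lama3, its alpha partner, was at 3.91, 3.94, 4.28 and 4.54 in old and between 4.16 and 4.21 in young arrays (-0.02, adjusted p = 0.934). Itga3, the second laminin receptor of basal keratinocytes, was at 5.51, 5.48, 5.81 and 6.04 in old and between 5.6 and 5.75 in young arrays (0.055, adjusted p = 0.809). Without old array 4, Itga3 and Lamb3 differed by -0.055 and -0.04. Itgb4, the beta partner of Itga6 in hemidesmosomes, was highest in old array 2 (6.08) and lowest in old array 1 (5.22), with young arrays between 5.36 and 5.76 (0.20, adjusted p = 0.495). Itga7, a laminin receptor of muscle, differed by -0.02 (95% confidence interval -0.34 to 0.30). The mean of Itga7, 4.34, also lay below 5.92. The skeletal muscle markers had a median difference of -0.01, and 0 of 7 were called (1 at an unadjusted p under 0.05 by limma).

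**Figure D3:**
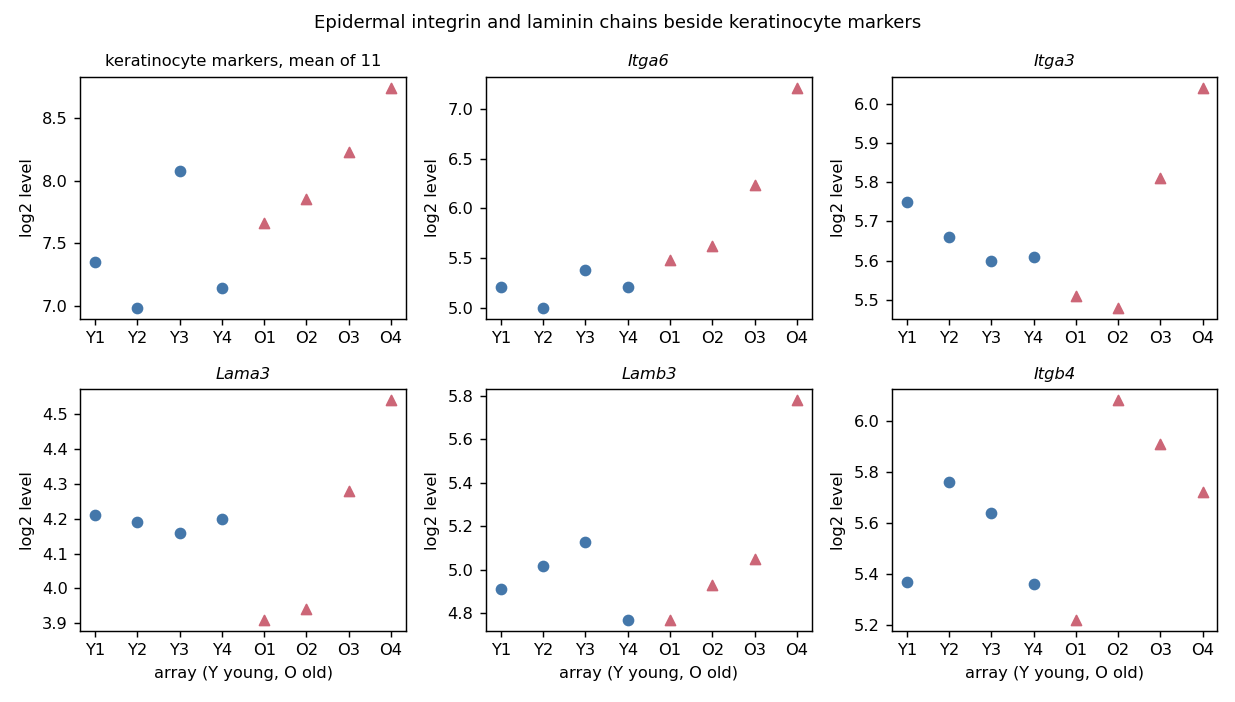
Log2 level in each of the 8 arrays (Y young, O old) of the mean of 11 keratinocyte markers and of 5 epidermal integrin and laminin chains; each panel has its own vertical scale. Old array 4 has the highest value in the panels of the markers, Itga6, Itga3, Lama3 and Lamb3, and old array 2 in that of Itgb4. The means of the 5 chains lie below 5.92, a level that genes of other organs also reached.

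The beta subunits of leukocytes did not pass. Itgb7, which marks gut-homing lymphocytes and mast cells, was at 6.40, 6.41, 6.46 and 6.59 in young and 6.44, 7.11, 6.71 and 7.07 in old arrays. Old arrays 2 and 4 were high, as for Itga8 and Itga5, and old array 1 lay within the young range (0.37, 95% confidence interval 0.06 to 0.68, adjusted p = 0.101). It passed without old array 1 (0.50, adjusted p = 0.0116). The mean of Itgb7 over all arrays, 6.65, lay just below 6.68, the highest mean among genes of other organs. Itgb2, the beta subunit common to leukocyte integrins, was between 4.41 and 4.55 in young and 4.55 and 4.99 in old arrays (0.21, adjusted p = 0.171). Ptprc, which encodes CD45, lay between 3.64 and 3.76 in young and between 3.80 and 3.99 in old arrays (0.17, adjusted p = 0.101). Itgb2 and Ptprc were both at a level that genes of other organs also reached. Of 11 leukocyte markers 2 were higher and 1 lower, against 9.87% higher and 7.66% lower over all genes. The lower was Csf1r, the receptor of macrophage growth factor and the brightest of the list (-1.92). The higher were Lyz2 (1.08) and Tyrobp (0.665), named after their values were seen and with means below 5.92. Of 7 mast cell markers 0 were called (0 at an unadjusted p under 0.05 by limma), and the brightest, Cma1, differed by 0.035. The part of these cells in the values of Itgb7 and Itgb2 was not tested.

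No laminin chain passed the test, and 1 of 8 had an unadjusted p under 0.05 by limma. The chains Lama2, Lamb1, Lamb2 and Lamc1, which build the laminins of muscle, nerve and mesenchyme, lay between 9.31 and 10.80 in all arrays. Lama2, whose loss causes congenital muscular dystrophy, was at 10.44, 10.07, 10.31 and 10.32 in young and 10.33, 10.60, 10.25 and 10.68 in old arrays. The groups overlapped (0.18, 95% confidence interval -0.07 to 0.43, adjusted p = 0.329). Lamc1, the gamma chain of most laminins, differed by 0.075 (95% confidence interval -0.08 to 0.23, adjusted p = 0.544), and its 2 probe sets by 0.075 and 0.17.

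The beta chains differed in opposite directions, neither past the threshold. Lamb1, the beta chain of early and vascular laminins, was at 9.94, 9.71, 9.67 and 9.60 in young and 9.96, 9.79, 9.88 and 9.88 in old arrays (0.15, adjusted p = 0.262). Its 4 probe sets all had positive differences, from 0.15 to 0.40, and the mean over them passed (0.24, adjusted p = 0.0375). Lamb2, the beta chain of synapses and kidney glomeruli, was at 9.60, 9.59, 9.69 and 9.68 in young and 9.48, 9.49, 9.31 and 9.51 in old arrays. All old values lay below all young values, with a difference of -0.19 (95% confidence interval -0.34 to -0.05, adjusted p = 0.0728). After a further quantile normalization Lamb2 passed as lower (-0.25, adjusted p = 0.0152), and with median centring it did not (-0.22, 0.0528). Whether the beta chains differ from each other in their response to age was not tested.

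The remaining chains were dim or variable. Lama1, the alpha chain of embryonic basement membranes, was between 4.88 and 5.28 in all arrays (-0.13, adjusted p = 0.299), a level that genes of other organs also reached. Lamc3, a gamma chain found in skin and nerve, was at 6.72, 6.38, 6.72 and 7.01 in young and 6.23, 7.58, 6.92 and 7.38 in old arrays. Old array 1 held the lowest and old array 2 the highest value, and the confidence interval of -0.26 to 0.90 was wide (0.32, adjusted p = 0.465). Schwann cell markers, which mark nerve, were called for 0 of 5 genes (2 at an unadjusted p under 0.05 by limma).

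Nid1, the nidogen that links laminin to collagen IV, was at 11.04, 10.57, 10.67 and 10.68 in young and 11.24, 10.72, 10.87 and 11.02 in old arrays. Young and old array 1 were the highest of their groups, and the groups overlapped. The difference was 0.22 (95% confidence interval -0.06 to 0.51, adjusted p = 0.286), and its other probe set differed by 0.28. Endothelial markers, whose vessels are rich in laminins and nidogens, were higher for 2 of 10 genes and lower for 1. Over all genes 9.87% were called higher and 7.66% lower. Tek, the angiopoietin receptor, had the largest difference of that list (1.73). The other called genes, Tie1 (0.35) and Egfl7 (-0.305), were named after their values were seen. Both lay below 5.92 in all arrays, within the range of non-specific signal.

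Among proteins that join laminins and nidogens in basement membranes, genes passed in both directions. Of 21 such partners 6 were higher, 6 lower and 9 did not pass, with a median difference of 0.21, against 17.5% called and a median of 0.0075 over all genes. The list was chosen with earlier results of these data known, so its share is not read as an excess. Agrin (Agrn), a heparan sulfate proteoglycan that binds laminin and dystroglycan, was at 7.43 to 7.83 in young and 8.57 to 8.86 in old arrays (1.14 ± 0.10, SE; adjusted p = 9.34e-05). Netrin 4 (Ntn4), a laminin-like protein that binds laminin gamma chains, rose by 0.82, hemicentin 1 (Hmcn1) by 0.595 and the hemidesmosomal linker dystonin (Dst) by 0.46. Frem1, a basement membrane protein of the Fraser complex, was at 7.59 to 8.39 in young and 5.83 to 6.26 in old arrays (-1.995 ± 0.19, SE; adjusted p = 1.46e-04). Its old values lay within the range of genes of other organs, whose means reached 6.68. Smoc2, a calcium-binding matricellular protein, fell by 1.03, and the basement membrane collagens Col18a1 and Col15a1 by 0.60 and 0.57. In all of these the old and young values did not overlap, as in 21.3% of all genes. They were named as the called genes of the list with the largest differences, which favours values that do not overlap. With the index of non-specific signal as a covariate 1 of the 21 was called, Smoc2 (-1.22, adjusted p = 0.022). In that fit Agrn differed by 0.97 ± 0.20, Col18a1 by -0.61 ± 0.14, Col15a1 by -0.64 ± 0.12 and Dst by 0.45 ± 0.14 (SE), close to the values without it and with larger errors. Ntn4 (0.55 ± 0.36) and Frem1 (-1.47 ± 0.34) had smaller differences.

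Of 21 measured integrin ligands 3 were higher, 3 lower and 15 did not pass (median 0.0025), against 9.87% higher and 7.66% lower over all genes. Nephronectin, fibronectin, tenascin C and Tgfb1 did not pass the test. Nephronectin (Npnt) was between 5.56 and 5.85 in young and 5.41 and 5.73 in old arrays (-0.09, adjusted p = 0.558), and fibronectin (Fn1) between 11.87 and 12.08 and between 11.67 and 11.99 (-0.105, adjusted p = 0.45). Tenascin C (Tnc) was at 6.40 and 6.21 in old arrays 1 and 4, and at 4.35 to 4.61 in the other arrays (0.93, adjusted p = 0.156). All Npnt values and the lower Tnc values lay within the range of non-specific signal. Latent TGF-beta, which Itga8 also binds, is encoded by Tgfb1, which differed by 0.245 (adjusted p = 0.353). Vitronectin (Vtn), a ligand of Itgav and Itga8 pairs, fell by 0.36 within the range of non-specific signal, a call that ended when any of 4 single arrays was left out (adjusted p up to 0.0756). The matricellular protein Ccn2 rose by 2.04, the metalloprotease Adam9 by 0.46 and Mfge8, which bridges Itgav pairs to dying cells, by 0.34. The young mean of Ccn2 (5.685) lay within the range of non-specific signal. Col13a1, a transmembrane collagen bound by Itga1, was at 7.47 to 7.80 in young and 5.96 to 6.2 in old arrays (-1.58 ± 0.09, SE; adjusted p = 6.94e-06). The old values of Col13a1 lay within the range of genes of other organs, whose means reached 6.68. Col13a1 kept its call with the index of non-specific signal as a covariate (-1.54, adjusted p = 0.0101). Emilin1, a ligand of Itga4 and Itga9 pairs, fell by 0.53.

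Of 33 genes of the adhesion machinery inside the cell 5 were higher, 2 lower and 26 did not pass (median 0.075), against 9.87% higher and 7.66% lower over all genes. The tensin Tns3, which binds the tails of beta subunits, was at 7.86, 6.78, 7.36 and 7.53 in young and 8.34, 8.81, 8.46 and 8.86 in old arrays (1.24 ± 0.21, SE; adjusted p = 0.00314). The adaptor Lims2 rose by 0.59 (adjusted p = 0.0463), Kank1, which organises the rim of adhesions, by 0.44 and the tetraspanin Cd9 by 0.35 (adjusted p = 0.037). Kank1 lay between 4.31 and 5.06 in all arrays, within the range of non-specific signal. The call of Lims2 ended after median centring (0.0762), after quantile normalization (0.0794) and without any of 7 arrays (up to 0.114), and that of Cd9 without any of 6 arrays (up to 0.0952). The tyrosine kinase Src, which signals from engaged integrins, fell by 0.55 and Ptk2b, a relative of focal adhesion kinase, by 0.41. Talin 1 (Tln1), kindlin 2 (Fermt2) and Ilk, named after their values were seen, differed by -0.06, 0.125 and -0.02. Without young array 2, young array 3 or old array 2 the count of called genes was 4 in place of 7.

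Of 20 other receptors for laminin and collagen 3 were higher, 4 lower and 13 did not pass (median 0.02), against 9.87% higher and 7.66% lower over all genes. Mrc2, which takes up collagen fragments, fell by 0.64, the syndecan Sdc3 by 0.51, and the enzymes Pomt2 and Pomgnt1, which build the laminin-binding sugars of dystroglycan, by 0.37 and 0.295. The collagen receptor kinase Ddr2 (0.35), Adgrg1 (0.44) and the dystroglycan-bound utrophin (Utrn, 0.265) rose, with Adgrg1 between 4.84 and 5.69, within the range of non-specific signal. Dystroglycan itself (Dag1), named after its value was seen, was at 11.45 to 11.59 in young and 11.33 to 11.38 in old arrays (-0.15, adjusted p = 0.0967). Leaving out single arrays removed the calls of Adgrg1 (any of 5; adjusted p up to 0.0688), Utrn (6; up to 0.0776), Ddr2 (3; up to 0.0627) and Pomgnt1 (2; up to 0.0546). Without young array 2, 3 genes were called in place of 7, and without old array 2 or old array 4, 4 were called.

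**Figure D4:**
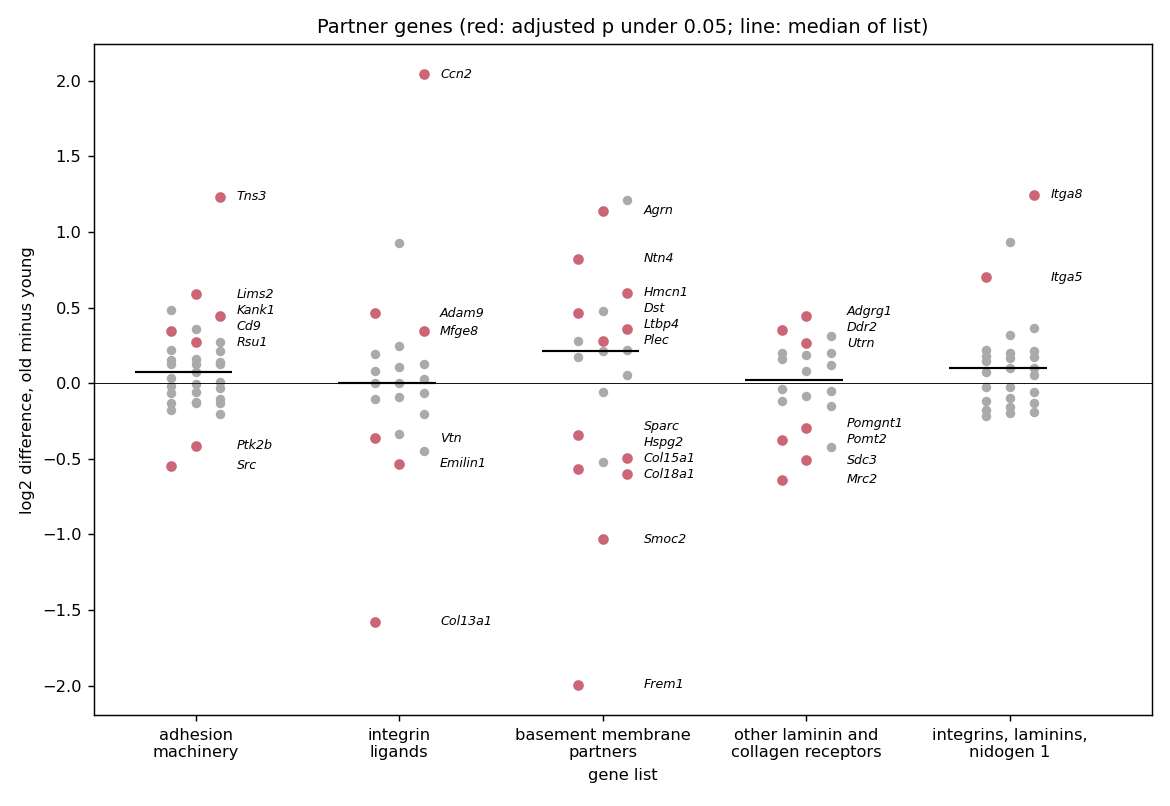
Log2 difference, old minus young, of each gene in the 4 partner lists and of the 27 measured members (n = 4 arrays per group). Genes past an adjusted p of 0.05 are red and named, and the horizontal line is the list's median. The lists were chosen with earlier results of these data known, and 12 of 21 basement membrane partners and 2 of 27 members passed.

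The calls of the integrins under each way of processing are shown for the 4 genes with the smallest adjusted p among higher values. Itga8 passed in all settings in which it was tested except with the index of non-specific signal as a covariate, and was too dim to be tested when dim genes were left out. Itga5 ranged from 0.0131 (without old array 1) to 0.509 (with that covariate), and Itga6 passed with the replicate block (0.026) and without old array 1.

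**Figure D5:**
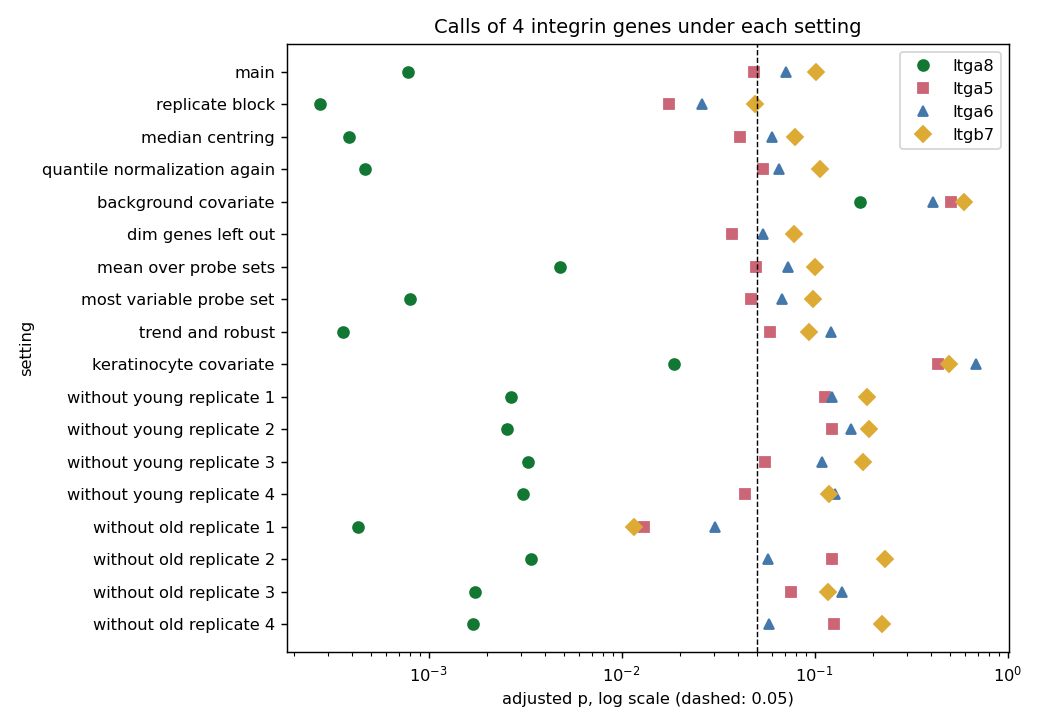
Adjusted p (log scale) of Itga8, Itga5, Itga6 and Itgb7 under the main setting and each alternative; the dashed line is 0.05. Itga8 lies left of the line except with the background covariate, and Itga5 moves from side to side.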

How the data were processed

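Transcript levels of sorted dermal fibroblasts were measured on Affymetrix arrays, 1 per animal. Per the labels' protocols, 18 cycles of amplification preceded labelling, and the submitters' processing notes name RMA and affy with no version. Values were deposited on a log2 scale, 1 per probe set. RMA makes array distributions alike, so a shift shared by most transcripts is hidden, and it compresses differences near background. Only probe sets with 1 symbol in the platform annotation were used (28898 of 45141), with symbols updated by gene ID in a RefSeq table of GRCm38.p6 (28689 matched). The brightest probe set represented each of 17097 genes.

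Old and young were compared by the 2-sided moderated test of limma 3.58.1 (R 4.3.3) without covariates. P-values were Benjamini-Hochberg adjusted over the 17097 genes, and 0.05 was the threshold. The script was tested on simulated data. Members, partner and marker lists were chosen with earlier results of these data known, and lists are described by counts and medians. Any member could be named; of each partner list up to 4 called genes per direction and ligands of called members, and of marker lists the brightest gene and that of largest difference, with others marked. Figures used matplotlib 3.10.9. Precision is limited by the number of arrays.

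Mice of both ages were taken on each day, per the series text, and no label gives the day of a specimen. Alternatives covered a replicate block, scaling, a background covariate, dim genes, probe set choice, eBayes settings, the threshold and each array left out; a keratinocyte covariate was added after seeing the data.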

Additional observations from a re-analysis of the deposited data

Results flagged for a closer look

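In 5 of 116 groups of 4 arrays, 1 array stood apart from the other 3 by Dixon's criterion; chance gives this in about 5% of groups. For Itga7, young array 1 was low, at 4.06 against 4.41 to 4.48. For Itgb6, young array 3 was low, at 3.83 against 3.88 to 3.89, a gap close to the rounding of the values. For the laminin chain Lamb2, old array 3 was low, at 9.31 against 9.48 to 9.51, and without it the difference was -0.15 (adjusted p = 0.173). For the ligand Ccn2, old array 1 was high, at 8.46 against 7.41 to 7.55. For agrin (Agrn), young array 4 was high, at 7.83 against 7.43 to 7.48. No cause was tested.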

How the results depend on the processing

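The count of 2 higher members was 2 with median centring and with the most variable probe set, 3 with the mean over probe sets, and 4 with the replicate block. It was 1 with quantile normalization, dim genes left out, trend and robust settings, a threshold of 0.01 or the keratinocyte covariate, 0 with the background covariate, and between 1 and 4 with single arrays left out. The count of 0 lower members was 1 with quantile normalization (Lamb2) and with the most variable probe set (Itgb5). Among partner lists, the background covariate left 0 adhesion genes, 1 ligand, 1 basement membrane partner and 0 other receptors called, against 7, 6, 12 and 7. The keratinocyte covariate left 2, 3, 8 and 2, and a threshold of 0.01 left 2, 3, 10 and 3. With single arrays left out the counts lay between 4 and 8 (adhesion), 5 and 6 (ligands), 11 and 13 (basement membrane) and 3 and 7 (receptors).

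Of 449 refits of members 416 kept their direction and side of the threshold, 11 lost and 7 gained a call, and 15 changed sign; of 523 refits of named partners these were 445, 74, 0 and 4. No refit with a changed sign was called. The sign changed with the background covariate for Itgb1 (-0.0267), Lama1 (0.0479), Lama3 (0.21), Lamc1 (-0.0004), Fn1 (0.0282) and Tnc (-0.55), and with the keratinocyte covariate for Itga3 (-0.12) and Lamb3 (-0.23). It changed with the most variable probe set for Itga4 (0.065), Itga9 (0.0475) and Npnt (0.175), and with the mean over probe sets for Npnt (0.0055). With single arrays left out the differences ranged from -0.055 to 0.13 for Itga3, -0.12 to 0.10 for Itga7, -0.15 to 0.0633 for Lama3 and -0.0408 to 0.30 for Lamb3. The cause was not tested.

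Same-numbered specimens had correlated deviations of 0.285, 0.0516, -0.0442 and 0.224. These were not all over 0.1, and not every specimen correlated best with its own number, so the numbers were not used as pairs; whether same-numbered mice share a day was not tested. The replicate block called Itga6 (0.935, adjusted p = 0.026) and Itgb7 (0.37, 0.0492) besides Itga8 and Itga5. Centring moved the median of all genes from 0.0075 to -0.0175. Signal near background limits 13 members.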
